A study of Homo sapiens with 3 samples.

Results

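The broad CBFB peaks were the stretches of the genome where the CBFB signal in SAOS2 cells was called as 1 peak of at least 3000 bp. They were chosen by width alone, as peaks of the CBFB list on chromosomes 1 to 22 and X whose end lay 3000 bp or more beyond their start. This gave 912 broad peaks among 27190 CBFB peaks on these chromosomes, or 3.35%, and 27246 in the whole list. SAOS2 is a human osteosarcoma cell line, grown here without treatment and kept under 20 passages. The series held 3 libraries from these cells, 1 each of ChIP with a custom-made RUNX2 antibody, ChIP with a CBFB antibody, and input DNA, and peak lists of the RUNX2 and CBFB libraries were analysed. Each antibody thus had 1 library and no replicates, so values carry 95% intervals of counting error alone and no p-values. The score of a peak is the value that the peak caller gave, read here as -10 times log10 of its p-value. Sequencing depth is unknown, because the lists give peaks without reads.

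RUNX1, RUNX2 and RUNX3 are transcription factors that recognise a short DNA motif through their Runt domain. All share the cofactor CBFB, the beta subunit of core-binding factor, so a CBFB peak does not tell which RUNX protein was present. RUNX2 is the family member needed for osteoblast differentiation, and osteosarcoma is a tumour of bone-forming cells. A peak of a sequence-specific factor is usually short, since each site gives a narrow hill of reads, and a wide peak can hold several neighbouring hills.

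Stretches of 200 bp from broad peaks are printed here because they show the kinds of DNA that such peaks contained. All are GRCh37 (hg19) reference sequence, plus strand, 5′ to 3′, with each RUNX core (TGTGGT, or ACCACA on the other strand) in capitals. Each is the stretch with the most cores in its peak outside annotated untranslated regions, so the number of cores in it is not a finding. The first 3 come from the RUNX genes themselves. They are at chr21:36418406-36418605 in RUNX1, chr6:45388590-45388789 in RUNX2 and chr1:25241027-25241226 in RUNX3, and each lay wholly inside a RUNX2 peak. The next 3 come from peaks with repeated cores. They are at chr17:79398587-79398786 in BAHCC1, chr10:48323194-48323393 near ZNF488 and chr5:176297780-176297979 in UNC5A. The last, at chr11:1454434-1454633 in BRSK2, comes from the highest-scoring broad peak that had no RUNX2 peak.
RUNX1: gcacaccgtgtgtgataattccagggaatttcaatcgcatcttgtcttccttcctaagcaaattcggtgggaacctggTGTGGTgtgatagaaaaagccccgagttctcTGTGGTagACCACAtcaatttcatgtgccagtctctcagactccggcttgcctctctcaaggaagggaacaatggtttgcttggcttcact
RUNX2: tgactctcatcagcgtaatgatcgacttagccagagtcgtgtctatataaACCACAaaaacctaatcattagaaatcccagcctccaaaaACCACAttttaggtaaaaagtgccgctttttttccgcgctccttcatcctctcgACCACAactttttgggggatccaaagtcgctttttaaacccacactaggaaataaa
RUNX3: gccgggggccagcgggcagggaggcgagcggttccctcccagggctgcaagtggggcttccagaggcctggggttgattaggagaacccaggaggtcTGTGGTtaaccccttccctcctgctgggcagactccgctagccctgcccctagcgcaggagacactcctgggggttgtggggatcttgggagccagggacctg
BAHCC1: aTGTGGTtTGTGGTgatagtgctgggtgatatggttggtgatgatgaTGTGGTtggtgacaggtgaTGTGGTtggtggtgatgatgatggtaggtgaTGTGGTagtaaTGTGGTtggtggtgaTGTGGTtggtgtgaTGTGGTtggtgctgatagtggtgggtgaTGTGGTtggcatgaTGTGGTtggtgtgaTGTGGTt
ZNF488: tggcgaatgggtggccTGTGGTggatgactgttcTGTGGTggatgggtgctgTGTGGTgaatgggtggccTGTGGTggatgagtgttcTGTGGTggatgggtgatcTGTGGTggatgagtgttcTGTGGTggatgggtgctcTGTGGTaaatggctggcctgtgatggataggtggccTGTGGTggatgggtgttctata
UNC5A: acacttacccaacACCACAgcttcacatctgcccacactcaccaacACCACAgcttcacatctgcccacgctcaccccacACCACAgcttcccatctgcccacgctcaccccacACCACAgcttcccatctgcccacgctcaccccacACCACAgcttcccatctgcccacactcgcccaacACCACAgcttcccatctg
BRSK2: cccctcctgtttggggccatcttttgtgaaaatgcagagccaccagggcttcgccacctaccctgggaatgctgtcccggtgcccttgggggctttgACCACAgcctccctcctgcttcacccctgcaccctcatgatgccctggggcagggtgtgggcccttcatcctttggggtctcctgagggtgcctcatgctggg

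The RUNX1 stretch held 3 cores, of which a TGTGGT and an ACCACA lay only a pair of bases apart, and the RUNX2 stretch held 3 cores, all in the ACCACA direction. The stretches from BAHCC1 and ZNF488 held 11 and 9 cores that recurred in tandem within a short repeated unit. In tiles of the same length laid end to end over all broad peaks, 17.9% (17.3 to 18.4) of 18947 tiles held a core, 0.528% held 3 or more and 0.285% held 5 or more. Within 100 bp of the midpoint, a window of nearly the same length, 19.4% (16.9 to 22.1) of broad peaks held a core. The share was 42.4% (41.8 to 43.0) in narrower peaks and 41.6% in all CBFB peaks. In the narrower peaks of 2000 bp to under 3000 bp, however, it was 22.7% (20.9 to 24.5), so a low share was not particular to broad peaks. A window of fixed length also takes up a smaller part of a wider peak.

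The width of the broad peaks ran from 3000 to 18437 bp with a median of 3749 bp, and their CBFB score ran from 50.5 to 3100 with a median of 392. Width and score moved together over the whole CBFB list (Spearman's correlation 0.643 across 27190 peaks). Within the broad peaks the value was 0.095 across 912 peaks. Choosing peaks by width narrows the range of widths, which by itself can lower the correlation, so these values are not comparable. Some broad peaks were strong and others were close to the lowest score in the list, and the plot of width against score shows both. Either side of the width limit, the values ran on without a step. The narrowest broad peak, of 3000 bp, was nearest to PLEKHG1 and had a score of 639. The next were 3 peaks of 3001 bp, nearest to SSR2, MRC2 and MDFI, with scores of 153, 435 and 709. Just outside the limit, 1 bp short of it, lay a peak nearest to ATP2B1 with a score of 656. Beyond it were 3 peaks of 2998 bp, nearest to FOSL2, FZD5 and KHDC4, with scores of 2311, 447 and 123.

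**Figure D1:**
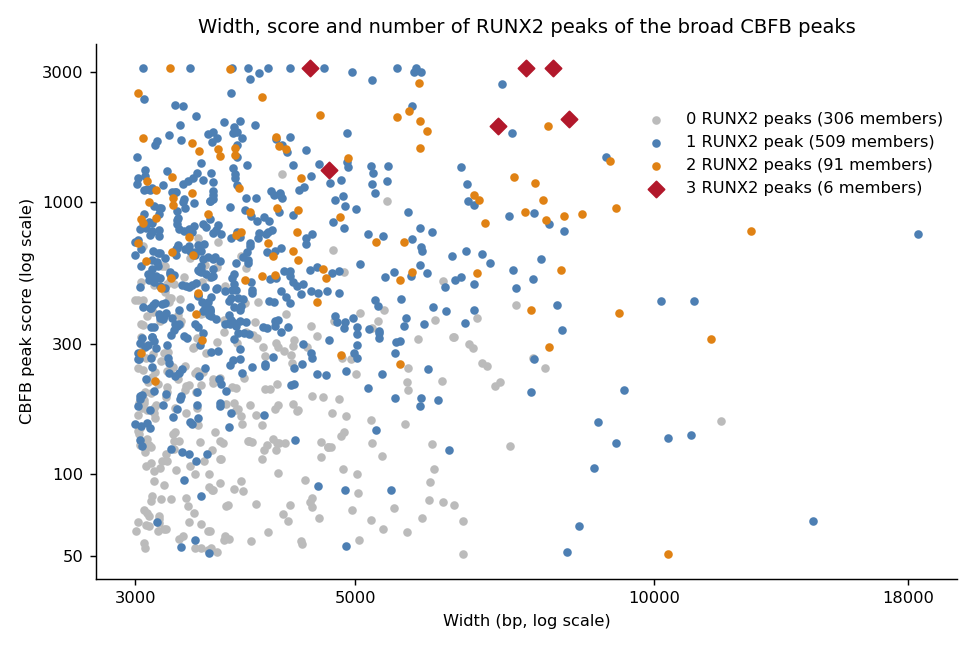
Width (bp, log scale) against CBFB score (log scale) for the 912 broad CBFB peaks, 1 point a peak, coloured by the number of RUNX2 peaks that overlap it. Grey points without a RUNX2 peak gather at low scores, and the 6 peaks with 3 RUNX2 peaks score from 1307 to 3100.

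The widest peaks were not the strongest. The widest of all, 18437 bp at chr2:90445710-90464146, had a score of 762 and lay 74184 bp from an assembly gap, nearest to the immunoglobulin kappa variable gene copy IGKV1OR2-118. Next came a peak of 14454 bp at chr1:145152518-145166971, with a score of 66.8, and a peak of 12520 bp at chr13:42131573-42144092, with a score of 779 and 2 RUNX2 peaks, over the start of the microRNA gene MIR5006. A peak of 11657 bp in an intron of BCAR3, which encodes an adaptor protein of integrin and kinase signalling, scored 156 and held no RUNX2 peak. A peak of 11413 bp over the 5S ribosomal RNA genes scored 313, and one of 10972 bp in an intron of DNAJC15 scored 431. One of 10890 bp over the start of BCL9, a coactivator of beta-catenin, scored 139. The remaining peaks among the 10 widest measured 10323 bp on chromosome 19 (score 135), 10316 bp over the start of FAM72A (50.9) and 10165 bp near LINC02798 on chromosome 1 (433). The midpoint lay in an intron for those in BCAR3, DNAJC15 and BCL9 and in intergenic DNA for the other 7. The first, the FAM72A peak and the last lay within 100 kb of an assembly gap or chromosome end.

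To see how many RUNX2 peaks each broad CBFB peak held, an overlap of 1 bp or more was counted. Of the 912 broad peaks, 606 held a RUNX2 peak, or 66.4% (63.3 to 69.5), against 33.8% of all CBFB peaks. A single RUNX2 peak was found in 509, 2 in 91 and 3 in 6, and 306 had none. Among the 26278 narrower peaks the share with a RUNX2 peak was 32.7% (32.1 to 33.2), and the share with 2 or more was 0.289% (0.228 to 0.362) against 10.6% (8.71 to 12.8) in the broad peaks. Per length the order was different. There were 1.82 (1.68 to 1.95) RUNX2 midpoints per 10 kb of broad peak, 2.48 (2.35 to 2.62) in peaks of 2000 bp to under 3000 bp, 3.0004 (2.93 to 3.07) in those of 1000 bp to under 2000 bp and 1.39 (1.31 to 1.49) in those under 1000 bp. RUNX2 peaks covered 29.4% of the bases of broad peaks and 24.7% of those of narrower peaks. By width the narrower peaks had 30.0% at 2000 bp to under 3000 bp, 28.1% at 1000 bp to under 2000 bp and 10.2% under 1000 bp. Broad peaks were thus not more covered than the peaks closest to them in width. A broad peak was thus more likely to hold a RUNX2 peak than a narrower one, but per length it held fewer than peaks of 1000 bp to under 3000 bp.

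**Figure D2:**
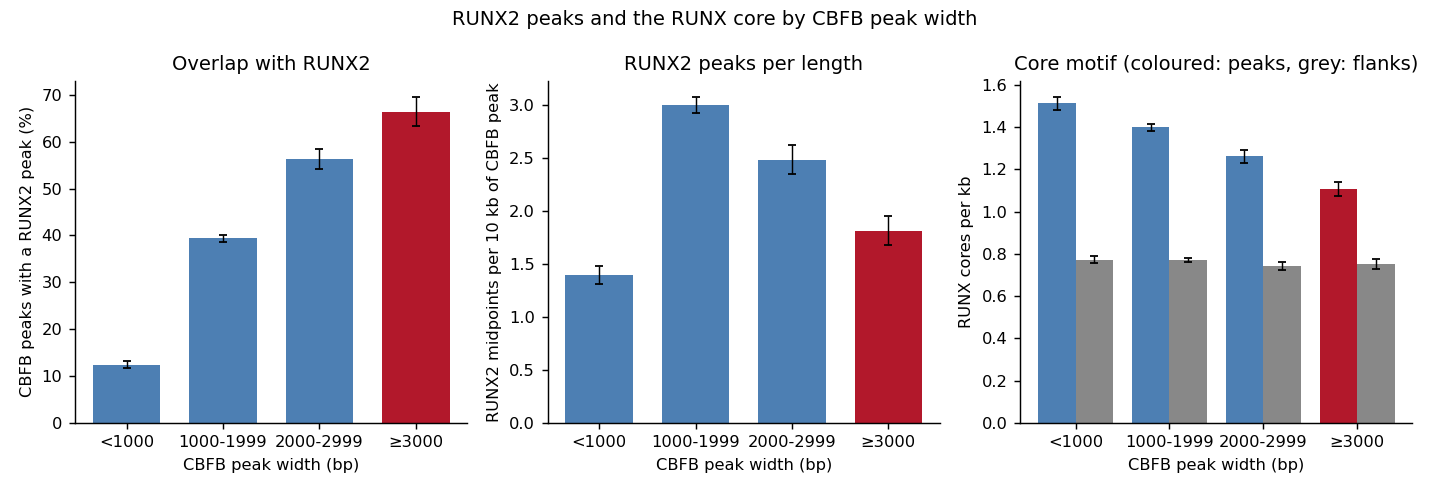
CBFB peaks in 4 width classes (blue: under 3000 bp, red: 3000 bp or more), with the share that overlap a RUNX2 peak (%), RUNX2 midpoints per 10 kb of CBFB peak, and RUNX cores per kb in peaks (coloured) and flanks (grey). Bars give the value and error bars its exact 95% counting interval. The share rises to 66.4%, while cores per kb fall from 1.51 to 1.11 and flanks stay near 0.75.

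The overlap followed the CBFB score closely. When the broad peaks were divided by score into 4 groups of 228, the share with a RUNX2 peak was 25% (19.5 to 31.1) in the lowest, 57.0% in the second, 84.6% in the third and 99.1% (96.9 to 99.9) in the highest. In that highest group 61 peaks held 2 or more RUNX2 peaks, against 1 in the lowest. Narrower peaks followed the score too. Under a score of 100, 15.6% (8.77 to 24.7) of 90 broad and 8.68% (8.16 to 9.22) of 10991 narrower peaks had a RUNX2 peak. From 200 to under 400 the shares were 57.5% (50.9 to 63.9) and 61.4% (59.9 to 62.8), and at 1000 or more they were 98.7% (95.4 to 99.8) and 98.9% (97.4 to 99.6). The intervals overlapped in each of the 5 score bands. Against the 2973 narrower peaks that scored at or above the median of the broad peaks, 91.7% of which held a RUNX2 peak, the difference of the 912 broad peaks was -25.2 percentage points (-28.6 to -22.01). That limit was set on the narrower peaks alone, so broad and narrower peaks were not of like score here. When the same score limit was applied to the broad peaks the difference was 0.19 percentage points (-2.86 to 2.76). Above that score limit a difference between broad and narrower peaks was thus not detectable.

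**Figure D3:**
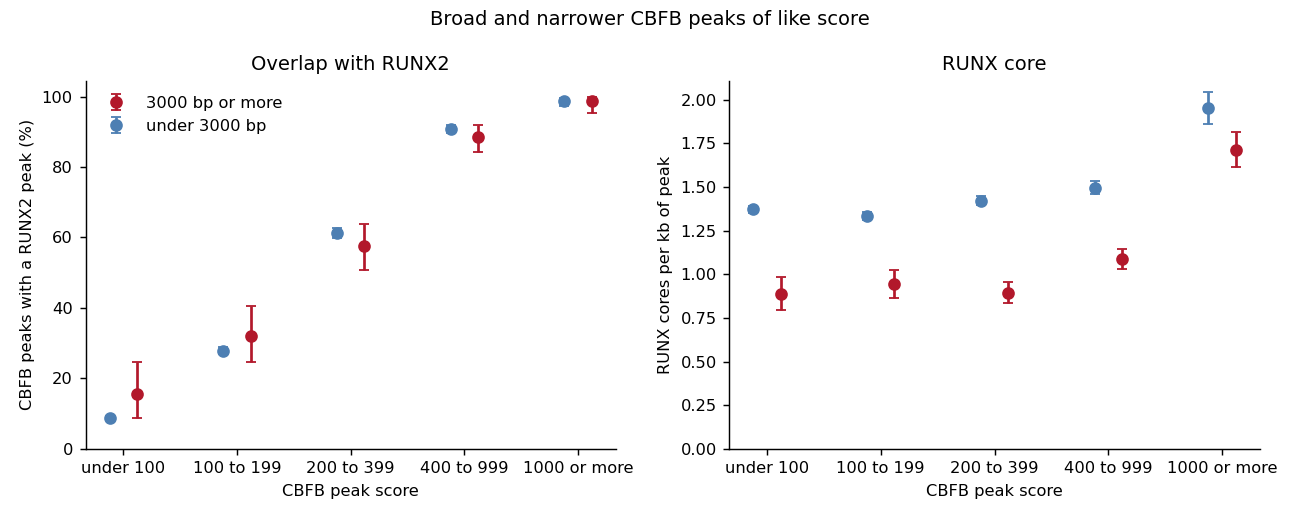
Broad (red) and narrower (blue) CBFB peaks in 5 bands of CBFB score, with the share that overlap a RUNX2 peak (%) on the left and RUNX cores per kb of peak on the right. Points give the value and bars its exact 95% counting interval. The intervals of the shares overlap in each band, and the broad peaks have fewer cores per kb in each band. Peaks with 20 or more cores are included, and 6 such broad peaks at the top score lie in the highest band.

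Of 704 RUNX2 midpoints, 236, or 33.5% (30.0 to 37.1), lay in the central one of 5 equal parts of the CBFB peak and 50 and 53 in the outermost parts. A RUNX2 peak that lies wholly inside has its midpoint away from the edges at a distance set by its own width, so these counts are a description of position only. The 6 broad peaks with 3 RUNX2 peaks were in RUNX1, BAHCC1, SEPTIN9 and ASPSCR1, in intergenic DNA at chr13:42966557-42974768, and beside the long noncoding RNA gene GASAL1. The RUNX1 peak at chr21:36417890-36422392 had the top score of 3100, and its strongest RUNX2 peak scored 318. The SEPTIN9 peak scored 1894 with a RUNX2 score of up to 217, and the ASPSCR1 peak scored 3100 with one of up to 1201. The strongest broad peak without any RUNX2 peak was that in BRSK2, a kinase gene best known from neurons, with a score of 1266. RUNX2 peaks that touched a broad peak were themselves wide. Their median width was 1376 bp (709 peaks), against 930 bp for the 8645 that touched narrower CBFB peaks alone, and 22.8% (19.8 to 26.1) against 0.810% (0.632 to 1.02) reached 2000 bp. Of 58 RUNX2 peaks of 3000 bp or more, 47 touched a broad CBFB peak. A core lay within 100 bp of the midpoint in 32.6% (29.1 to 36.2) of the RUNX2 peaks at broad CBFB peaks and in 44.8% (43.8 to 45.9) of those at narrower ones. A low share was not limited to RUNX2 peaks at broad peaks. In the 1 Mb windows rich in broad peaks, described below, 389 RUNX2 peaks touched no broad peak. Their share was 32.4% (27.8 to 37.3). For RUNX2 peaks that touched a broad peak it was 28.2% (23.5 to 33.2) inside these windows and 37.01% (31.96 to 42.3) outside. The lists give no summits, and whether the distance from midpoint to summit has a part in these shares was not tested.

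The RUNX core was then counted over whole peaks. Broad peaks held 1.11 cores per kb (1.07 to 1.14), narrower peaks 1.401 (1.39 to 1.41), and flanks of equal width 2 kb away 0.752 and 0.767. The ratio of peak to flank was 1.47 for broad and 1.83 for narrower peaks. It fell step by step with width, from 1.958 under 1000 bp to 1.82 and 1.70 in the next classes. For the longer form TGTGGTT the ratio was 2.02 in broad and 3.12 in narrower peaks. Nearly every broad peak still held a core somewhere (96.4%, 94.96 to 97.5, with a median of 4 a peak), and 33 held none. Broad peaks of low score stood lowest. Under a score of 100 they held 0.885 cores per kb and their flanks 0.899, a ratio of 0.985, while narrower peaks of that score had a ratio of 1.77. At a score of 1000 or more the ratios were 2.37 and 2.65. The score bands kept peaks with 20 or more cores, most of them repeated, which raise the density of a band. Of the broad peaks in the highest band, 6 at the top score were of this kind, such as BAHCC1 with 74 cores. The counting intervals treat each repeated core as a separate count, so they are too narrow there. Broad peaks with a RUNX2 peak held 1.16 cores per kb (1.12 to 1.20) and those without one 0.985 (0.931 to 1.04). Of the other motifs counted, the GC box GGGCGG had a ratio of 2.80 in broad and 3.04 in narrower peaks, and the ETS motif CCGGAAG 1.85 and 2.79. For TEAD (GGAATG) the ratios were 1.12 and 1.17, for AP-1 (TGANTCA) 1.18 and 1.396, for the E-box (CACGTG) 1.35 and 1.32, and for the CTCF-related AGGGGGC 1.72 and 1.68. Each motif was read on both strands, and GGGCGG and the CTCF-related letters may share bases.

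There were 10 broad peaks, or 1.10%, with 20 or more cores, against 39 narrower peaks, or 0.148%. Of the 13 broad peaks at the top score of 3100, 6 were of this kind. BAHCC1 held 74 cores, of which 66 were TGTGGTT, and 3 RUNX2 peaks with a top score of 3100. The peak nearest to ZNF488 held 67 cores, of which 1 was TGTGGTT, with a RUNX2 score of 2465. The peak nearest to SSMEM1 held 48 cores with a RUNX2 score of 1093. The peak nearest to ERMARD held 83 cores, the most of any broad peak, yet its RUNX2 peak scored 77.4. In UNC5A 73 cores lay under a CBFB score of 711 with no RUNX2 peak. Without the peaks of 20 or more cores, broad peaks held 0.990 cores per kb and narrower ones 1.36. Short reads from repeats may be placed at other copies, and the part of that in these scores was not tested. The other 7 broad peaks at the top score lay in RUNX1, ASPSCR1, BAIAP2, CDC42EP4 and YBEY, beside LINC01512 and beside ERVK-28, with 0 to 15 cores each. The YBEY peak, with 0 cores, had a RUNX2 score of 1429.

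Broad peaks lay at promoters more often than all narrower peaks, but not detectably more often than the peaks closest to them in width. The midpoint lay within 5 kb of a TSS in 54.6% (51.3 to 57.9) of broad and 45.9% (45.3 to 46.5) of narrower peaks, a difference of 8.72 percentage points (5.36 to 12.04). Within 1 kb the shares were 34.2% and 25.9%. In peaks of 2000 bp to under 3000 bp the share was 52.3% (50.1 to 54.4) within 5 kb and 33.1% within 1 kb. Gene bodies held 31.6%, the distal class within 25 kb of a transcript 9.76%, and the remaining class 4.06% (2.87 to 5.55) against 7.26% (6.95 to 7.58) of narrower peaks. The difference varied with score. The promoter shares were 44.4% and 45.7% under a score of 100, 62.7% (56.1 to 68.9) and 44.6% (43.1 to 46.0) from 200 to under 400, and 42.9% and 42.5% at 1000 or more. Without chromosomes 1, 6, 8, 13, 17 and 19 the difference over all scores was 2.42 percentage points (-5.70 to 10.7). The start of a protein-coding gene lay inside 22.5% (19.8 to 25.3) of broad and 11.99% (11.6 to 12.4) of narrower peaks, and 2 or more such starts lay inside 4.82% and 1.79%, shares that width raises by construction. In the 161 broad peaks with exactly 1 such start, the peak reached a median of 1685 bp before it and 2308 bp after it, and 65.8% (58.0 to 73.1) reached farther into the gene than before it. GC content was 49.2% (48.8 to 49.7) in broad peaks and 48.2% in narrower peaks, but 49.6% (49.3 to 49.9) in those of 2000 bp to under 3000 bp, and the median ratio of observed to expected CpG was 0.287 and 0.240.

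Genes that are neither protein-coding nor lncRNA genes took a larger share of the starts inside broad peaks than of those inside narrower peaks. Of 453 starts in broad peaks, 56.3% (51.6 to 60.9) were protein-coding, 25.6% were lncRNA genes and 18.1% (14.7 to 21.96) other genes. Of 5575 starts in narrower peaks, 65.5% (64.2 to 66.7) were protein-coding, 26.7% were lncRNA genes and 7.86% (7.16 to 8.59) other genes. In peaks of 2000 bp to under 3000 bp 59.3% (55.7 to 62.7) were protein-coding and 9.90% (7.90 to 12.2) other genes, and in narrower peaks of high score 58.4% (54.3 to 62.5) and 10.4% (8.06 to 13.2). The lower protein-coding share was thus found in these peaks too, while the intervals of the other genes did not overlap that of the broad peaks. Small nuclear RNA genes gave 14 of the starts in broad peaks and 28 in narrower ones, and ribosomal RNA genes gave 12 and 1. These were mainly of 2 kinds, which were picked out after their values were seen. U1 snRNA, the RNA that marks 5′ splice sites, is encoded by 25 annotated genes and variants, and 11 of them (44%, 24.4 to 65.1) started inside a broad peak, each in a peak of its own. The widths of these 11 peaks ran from 3084 to 9330 bp and their scores from 51.3 to 575, and all 11 held a RUNX2 peak and lay in 1 Mb windows rich in broad peaks. They were all on chromosome 1 and included RNU1-1, RNU1-2 and RNU1-4, with scores of 532, 575 and 335, and 8 RNVU1 variants. Of the 5S ribosomal RNA genes, 12 of 17 started inside 4 broad peaks of the tandem cluster on chromosome 1, from 228744186 to 228780320, with scores of 282 to 373. No start of the 12 genes for U4, U5 and U6 snRNA lay in a broad peak, and 3 lay in a narrower one. For comparison, 255 of all 20098 protein-coding genes started inside a broad peak, as did 3 of 1860 other snRNA genes and snRNA pseudogenes. In the windows rich in broad peaks, 36.2% (32.5 to 40.1) of protein-coding genes held one in their body or the 5 kb before. That criterion is wider than a covered start, and the part of these windows in the U1 share was not tested. Copies of U1 and 5S genes are nearly identical, so the placing of reads among them is uncertain.

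The broad peaks were gathered on few chromosomes. Chromosome 1 held 391 of them, 11.7% (10.7 to 12.9) of its CBFB peaks, and chromosome 17 held 141, or 10.0% (8.49 to 11.7). Together these carried 58.3% of the broad and 16.0% of the narrower peaks. Chromosome 6 followed with 113 (4.85%), chromosome 13 with 40 (5.49%), chromosome 8 with 44 (4.58%) and chromosome 19 with 29 (3.92%). Chromosome 11 had 1 among 1075 CBFB peaks, and chromosome 18 had 0 among 259, which allows a share of up to 1.41%. Within these chromosomes the broad peaks lay in blocks. When the genome was divided into 3053 windows of 1 Mb, 55 windows with 5 or more broad peaks held 492 of them (53.9%) and 4.49% of the narrower peaks. In these windows 29.4% of CBFB peaks were broad, against 1.65% elsewhere, a difference that the choice of windows fixes in part. The windows fell into 21 segments. The longest ran over 13 Mb at chr1:143000001-156000000 (97 of 286 CBFB peaks were broad) and 11 Mb at chr17:70000001-81000000 (105 of 470). In the segment at chr1:94000001-97000000 41 of 79 were broad, or 51.9% (40.4 to 63.3), and in that at chr6:57000001-58000000 7 of 13, or 53.8% (25.1 to 80.8).

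**Figure D4:**
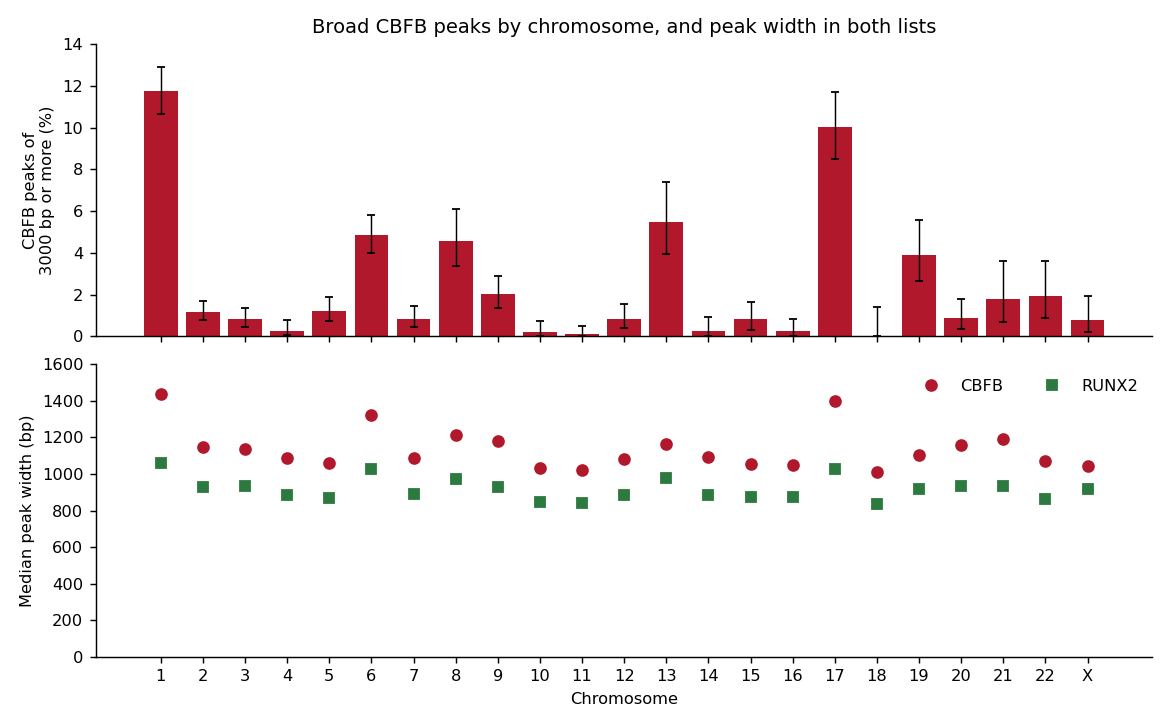
Top, share of the CBFB peaks on each chromosome that are 3000 bp or wider (%), with exact 95% counting intervals. Bottom, median width (bp) of CBFB (red circles) and RUNX2 (green squares) peaks on each chromosome. Chromosomes 1 and 17 lead with 11.7% and 10.0%, and RUNX2 peaks, from another library, are also widest on chromosome 1 with 1060.5 bp.

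Peaks of other kinds were wider in the same blocks. The narrower CBFB peaks in the 55 windows had a median width of 1769 bp, against 1120 bp elsewhere. These widths come from the list that chose the windows, so this difference is a description. RUNX2 peaks, which come from another library of the same cells and did not enter the choice of windows, had a median width of 1332 bp inside (744 peaks) and 922 bp outside (9182 peaks), and 17.7% (15.1 to 20.7) against 1.22% (1.01 to 1.47) reached 2000 bp. The 389 RUNX2 peaks in these windows that touched no broad CBFB peak had a median of 1164 bp. RUNX2 peaks, whose widths did not enter the choice, were thus also wider in these regions, and the cause was not tested. The comparisons above were repeated within and outside the windows. The share of broad peaks with a RUNX2 peak was 63.0% (58.6 to 67.3) inside, against 30.1% of narrower peaks there, and 70.5% (65.9 to 74.8) outside, against 32.8%. The promoter share was 56.3% against 49.5% inside and 52.6% against 45.7% outside. Cores per kb were 1.01 against 1.17 inside and 1.25 against 1.42 outside. Without chromosomes 1, 6, 8, 13, 17 and 19, however, cores per kb were 0.03 higher in broad peaks (-0.07 to 0.14), so the lower density of cores did not hold without those chromosomes. The difference in GC content was 2.32 percentage points (1.53 to 3.10) outside the windows and -0.59 (-1.37 to 0.19) inside.

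Of 20098 protein-coding genes, 521, or 2.59%, held a broad peak in their body or in the 5 kb before their start, and 45.5% held a CBFB peak of any width. The share was 36.2% (32.5 to 40.1) of the 638 genes that started in the 55 windows and 1.49% (1.32 to 1.67) of the other 19460, which follows from the choice of windows and is given as a description. It rose with gene length, from 1.74% (1.402 to 2.13) under 10 kb to 4.54% (3.54 to 5.72) at 200 kb or more. There were 285 broad peaks (31.2%) that touched no protein-coding gene or its 5 kb. A total of 52 genes, or 0.259%, held 3 or more. The most were 13 in SEPTIN9, a cytoskeletal GTP-binding protein, and 11 each in BCAR3 and TIAM2, the latter an exchange factor for the GTPase RAC1. DDAH1, which breaks down methylated arginine, held 9, ST6GALNAC3 and AK5 held 8 each, and PRIM2, a subunit of DNA primase, and GLIS1, a zinc finger factor, held 7 each. KCNN3, PRKCA, AHRR and CNKSR3 held 6 each. ENSG00000288520, an unnamed gene that overlaps CNKSR3, held 10.

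In SEPTIN9 the 13 broad peaks covered 65859 bp of a gene of 220028 bp at chr17:75276651-75496678. Of these, 10 lay in 1 run of 110381 bp with gaps of less than 25 kb. Their scores ranged from 143 to 1894, the strongest lay 177475 bp after the start of the gene, and together they overlapped RUNX2 peaks 12 times. In BCAR3, at chr1:94027298-94312706 on the minus strand, the 11 broad peaks covered 70103 bp. The one over the start of the gene was 3566 bp wide and scored 1011, while that of 11657 bp, 226384 bp after the start, scored 156. In TIAM2 the 11 broad peaks began 149788 bp after the outermost start and covered 54883 bp, with scores of 64.6 to 1348. SEPTIN9 held 14 narrower CBFB peaks as well, BCAR3 5 and TIAM2 21. In BCAR3 11 of 16 CBFB peaks were thus broad, as the map of peaks over genes shows. LMNA, the gene of the nuclear lamins A and C, held 3 broad peaks of 4670, 7768 and 8936 bp with scores of 230, 245 and 1461. EPHA2, an ephrin receptor kinase, held 4, and the widest of these, 6906 bp over its start, scored 211.

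**Figure D5:**
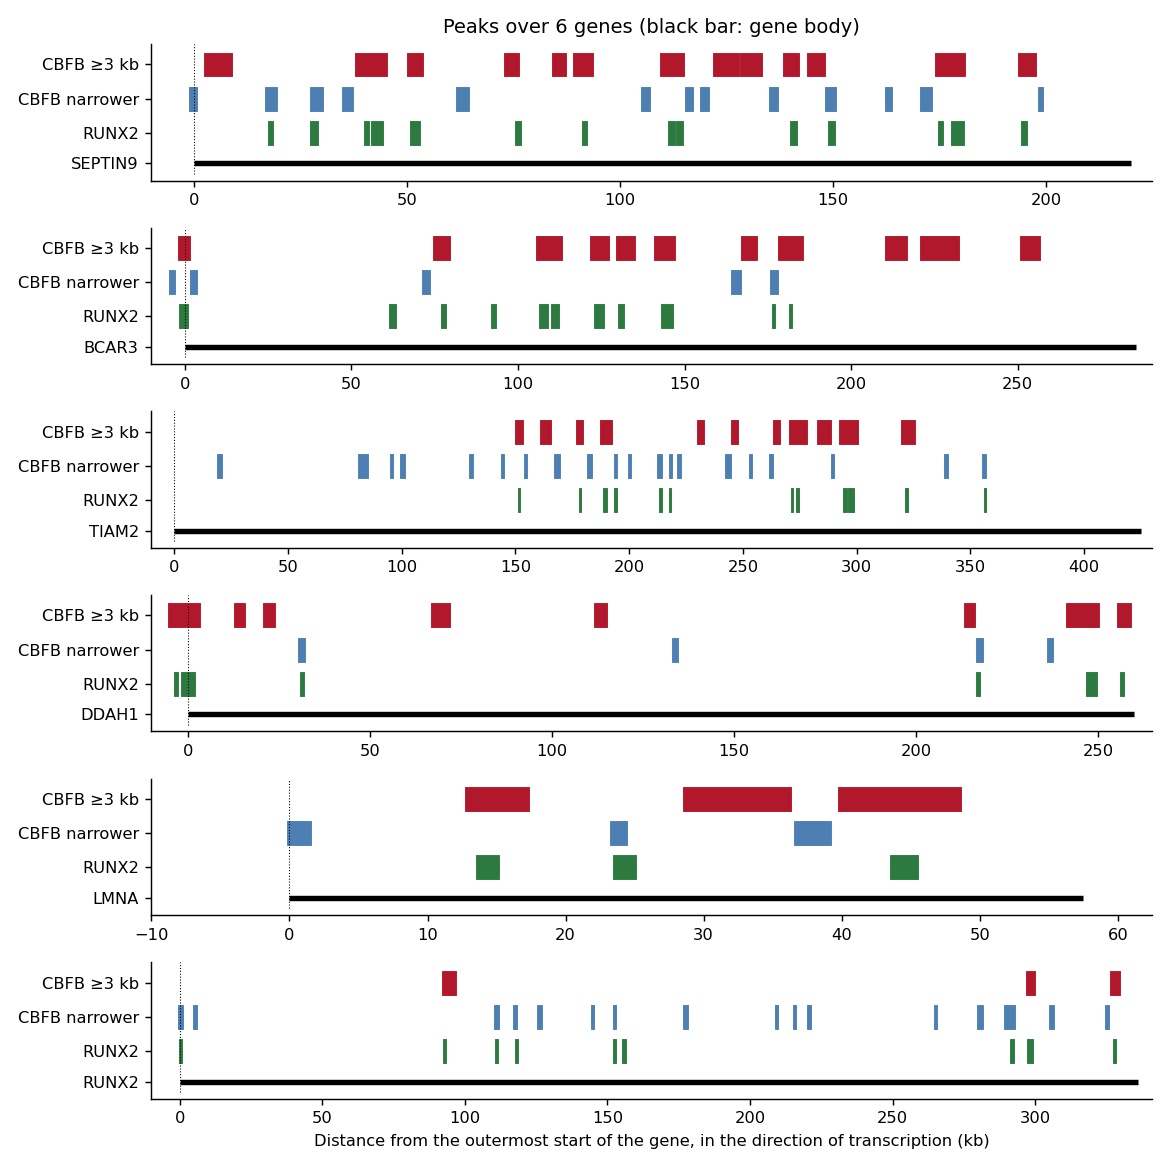
Broad CBFB (red), narrower CBFB (blue) and RUNX2 (green) peaks over SEPTIN9, BCAR3, TIAM2, DDAH1, LMNA and RUNX2, by distance from the outermost annotated start of each gene in the direction of transcription (kb), with the gene body in black. SEPTIN9 holds 13 broad peaks along its length, while the midpoints of the 3 broad peaks of RUNX2 lie 94372 bp and more from that start.

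The gene lists were read against the 2.59% of all protein-coding genes. Of the RUNX family and its corepressors, 4 of 23 (17.4%, 4.95 to 38.8) held a broad peak, and all 4 lay outside the 55 windows. They were RUNX1, RUNX2, RUNX3 and TLE4, a Groucho corepressor that RUNX proteins recruit. The RUNX3 peak, 3022 bp in an intron, scored 2522 and held 2 RUNX2 peaks, the stronger with a score of 408. RUNX2 held 3 broad peaks with scores of 555, 388 and 397 and 1 RUNX2 peak in each, with RUNX2 scores of 117, 174 and 101. The first, at chr6:45387858-45392674, had its midpoint 44 bp from an annotated internal TSS of RUNX2, while the CBFB peak at the outermost start was narrower (1655 bp) with a higher score of 1926. The RUNX1 peak had its midpoint 1426 bp from an annotated TSS of that gene. The TLE4 peak of 3553 bp scored 900 and held 2 RUNX2 peaks. Each of the 3 RUNX genes thus had a broad CBFB peak together with RUNX2 peaks. Gene length and the number of CBFB peaks limit what this shows. RUNX1 held 41 CBFB peaks over 1216868 bp, of which 1 was broad, and RUNX2 held 20 over 336193 bp, of which 3 were broad. In this list the median gene length was 90960 bp, and 78.3% held a CBFB peak of any width, against 45.5% of all protein-coding genes.

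Of 24 osteoblast transcription factors, 2 held a broad peak, RUNX2 itself and PRRX2, a homeobox factor (3229 bp, score 1295). Of the 25 genes of bone matrix and mineralization 0 held one, although 15 held a CBFB peak of some width, and 0 of 25 allows a share of up to 13.7%. Of 44 collagen genes, 1 did, COL24A1, with 2 peaks of up to 181. Wnt pathway genes gave 6 of 42 (14.3%, 5.43 to 28.5). AXIN2, a target and inhibitor of the pathway, had the widest peak of 6151 bp with a score of 484, the agonist RSPO2 had 3 of up to 4517 bp, and the receptor ROR2 had 2 of up to 4110 bp. WNT7B, a ligand, had one of 3779 bp with a score of 1579 and 2 RUNX2 peaks, and TLE4 and the receptor ROR1 had 1 each. TGF-beta and BMP genes gave 4 of 41 (9.76%, 2.72 to 23.1). These were the coreceptor TGFBR3 with 2 peaks of up to 5149 bp, the ligand TGFB1 with 2 of up to 4297 bp and a top score of 1728, the transcription factor SMAD3 (3175 bp, score 374) and its repressor SKI (3441 bp, score 293). The interval of the osteoblast factors (1.03 to 27.0) held 2.59%, and that of the TGF-beta and BMP genes began just above it. A CBFB peak of any width lay in 71.4% of the Wnt list and 80.5% of the TGF-beta and BMP list, against 45.5% of all protein-coding genes. Their median gene lengths were 53918.5 and 56518 bp, and the share with a broad peak rose with gene length. Both limit what these shares show.

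The remaining lists gave few broad peaks. The replication-dependent histones were the exception with 12 of 64 (18.8%, 10.1 to 30.5). Their genes are short and clustered, and several share 1 peak, such as the peak of 7570 bp over H3C14 and H4C14 with a score of 907. Of the 12, 7 lay in the 55 windows, where 36.2% of all protein-coding genes held a broad peak. Near-identical copies make the placing of reads uncertain here too. TIMP2, an inhibitor of matrix metalloproteinases, held 3 broad peaks of up to 8694 bp, and ADAMTSL4 and ADAMTS5 held 1 each, 3 of 51 on that list. Among 26 integrins, ITGA10 held 3 of up to 4859 bp and ITGB5 held 2 of up to 3528 bp. JUN (4574 bp, score 322, no RUNX2 peak) was the 1 of 19 AP-1 genes. CCN1, a secreted matrix protein, was the 1 of 22 YAP and TEAD pathway genes, with 3 adjoining peaks of 5374, 3323 and 3318 bp. EPHA2 was the 1 of 25 growth factor receptors, and RXRA (3055 bp) the 1 of 48 nuclear receptors. MYC (3381 bp, score 316) and MCL1 (4685 bp, score 471, the same peak as at ADAMTSL4) were the 2 of 37 cell cycle and survival genes. Like most of these histone genes, MYC, MCL1, ADAMTSL4, TIMP2, ITGA10, CCN1 and EPHA2 lay in the 55 windows. AXIN2 and COL24A1, of the lists above, lay there too. In these windows 36.2% of all protein-coding genes held a broad peak. Of 476 zinc finger genes named ZNF, 10 (2.10%, 1.01 to 3.83) had a broad peak, led by ZNF549 and ZNF550 under a shared peak of 5812 bp and ZNF436 with 3804 bp. None of 39 HOX genes, 414 olfactory receptors, 30 blood cell genes and 16 liver and keratin genes held one, which allows shares of up to 9.03%, 0.887%, 11.6% and 20.6%.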

How the data were processed

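ChIP-seq peak lists of 1 RUNX2 and 1 CBFB library of SAOS2 cells were analysed. The input library was not analysed here. The submitters' processing notes name CASAVA 1.8.2, MACS 1.4.1 and the build hg19. The limit used for calling, the aligner and the use of the input were not given in the sources used here. The lists deposited by the authors give the position of each peak and a score, which was 50 or more in both lists and was used within a list only. The depth is unknown, and positions are printed from 1.

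Members were CBFB peaks of 3000 bp or more on chromosomes 1 to 22 and X. The members and the gene lists were chosen with earlier results of these data known. RUNX2 peaks were counted when they shared at least 1 bp with a CBFB peak. GENCODE release 44, in its GRCh37 version, gave genes and TSSs, promoters reached 5 kb from any TSS, and a gene held a peak that overlapped its body or the 5 kb before its start. Motifs were counted on both strands, overlaps included, in the GRCh37 sequence and in flanks of equal width that began 2 kb beyond each edge and touched no peak. Shares carry exact Clopper-Pearson and rates exact Poisson 95% intervals, and differences combine them. GC content has normal intervals over peaks. All intervals cover counting error only, and peaks are not replicates, so no p-value was computed. Windows of 1 Mb with 5 or more members, limits of 20 cores, the score bands and the snRNA and 5S gene groups were chosen after seeing the data.

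The text names the genes at the 10 widest members, at the members with the most RUNX2 peaks and at those with the highest scores, genes that hold 3 or more members, list genes with the widest member (up to 3 a list) and the peaks nearest to the width limit. Some members and gene lists that the rule covers are not reported here. Genes named beyond this rule, and other members of short lists, were chosen after their values were seen. Alternatives covered the width limit, gaps and chromosome ends, dense windows, the overlap, the score limit, the reach of promoters and genes and the form of the motif. The counting steps were tested on simulated peaks and sequences. The software was matplotlib 3.10.9 for plots, scipy 1.17.1 for intervals, and pandas 2.3.3 and numpy 2.4.6 for tables, all under Python 3.11.15.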

Additional observations from a re-analysis of the deposited data

Results flagged for a closer look

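Contigs other than chromosomes 1 to 22 and X, which no comparison used, held 56 CBFB peaks, and 5 of these were 3000 bp or wider. They are listed because they lie outside the data compared, and no expected number is known. They lay on 3 contigs that are not placed within a chromosome, and the widest measured 11499 bp. No control list was analysed here, so the level in control DNA is not known.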

How the results depend on the processing

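Of 67 values under alternatives, 33 stayed within the counting interval of the reported value or, for counts of genes, within 1.5 times the reported count, 30 moved by more and 4 changed sign. Alternatives by chromosome or by windows rich in broad peaks, the shared score limit and the removal of peaks with 20 or more cores were chosen after seeing the data. No paired analysis was possible because there was a single library per antibody, and for the same reason no replicate could be left out. Repeat-masked bases could not be used, since the genome sequence did not mark them, so that criterion was not run.

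The share of broad peaks with a RUNX2 peak, 66.4%, was 62.4% with a width limit of 2500 bp and 69.9% with 4000 bp. It was 63.0% in the 55 windows rich in broad peaks and 70.5% outside them, 62.8% on chromosomes 1 and 17 and 71.6% without these, and 70.1% without chromosomes 1, 6, 8, 13, 17 and 19. It was 63.0% when the RUNX2 peak had to lie wholly inside, and 50.1% with RUNX2 peaks at or above their median score. The difference from narrower peaks of high score, with the score limit on that side alone, was -25.2 percentage points. It was -20.7 in the rich windows, -17.8 against the highest of 5 score groups, and 0.19 with the same score limit on both sides.

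The promoter difference of 8.72 percentage points was 4.30 without chromosomes 1 and 17 and 2.42 without the 6 chromosomes. The 521 genes became 883 at 2500 bp, 209 at 4000 bp, 236 in the rich windows, 286 outside them, 309 on chromosomes 1 and 17, 212 without these, 104 without the 6 chromosomes and 809 with 25 kb on both sides of the gene.

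The difference in cores per kb, -0.295, was -0.165 in the rich windows, -0.171 outside them, -0.123 without chromosomes 1 and 17 and 0.032 without the 6 chromosomes. Peaks of 20 or more cores were kept in each of these. The difference was -0.205 for TGTGGTT, -0.354 for TGTGGT or TGCGGT and -0.369 without peaks of 20 or more cores. The GC difference of 1.06 percentage points was 0.330 without windows of over 5 times the median number of peaks, -0.592 in the rich windows, 2.32 outside them, -0.070 on chromosomes 1 and 17 and 3.71 without the 6 chromosomes. Except where fewer peaks or another definition enter by construction, the cause was not tested. With 1 library an antibody, no value has an error between libraries.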
